A study of Mus musculus with 8 samples.

Results

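Liver is the main site where amino acids are broken down, and 40 enzymes of that breakdown, other than the enzymes of tyrosine, were followed in livers of Fah-/- mice. The enzymes were chosen by name, as the steps that remove or degrade serine, glutamine, histidine, tryptophan, proline, methionine, cysteine, the branched chain amino acids, lysine and glycine, and the aminotransferases that feed them. All 40 were found in the expression table, and all 40 had a level of at least 1 FPKM (sequenced fragments per kilobase of transcript, scaled to the size of the library) in at least 2 of the 8 samples. They were 40 of the 11007 genes that met this floor, out of 22504 genes listed.

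Mice without Fah, the last enzyme of tyrosine breakdown, accumulate toxic tyrosine products in hepatocytes unless they are given NTBC, which inhibits a step upstream of these products. All mice were Fah-/- on a 129S4 background, so the controls carried the same deletion, and the full NTBC dose was 7.5 mg/L in drinking water. The group MCLI8 (C 8w in the study, n = 3, samples 1a, 2a and 3a) received 2.5% of that dose for 8 weeks, a regimen called moderate chronic liver injury (MCLI). The group MCLI8 + SALI4 (C 8w + A 4w, n = 3, samples C096, C097 and C098) received the same 8 weeks of MCLI and then no NTBC for 4 weeks, a severe injury (SALI) by which the study set out to induce senescence. The group MCLI12 (C 12w, n = 2, samples 2e and 3e) stayed on MCLI for 12 weeks, and its tissue was given as tumor where that of the other groups was given as liver. Neither the age nor the sex of the mice was among the labels. The samples of MCLI8 and MCLI12 carried codes of 1 series and those of MCLI8 + SALI4 codes of another, so the sample series and the severe injury cannot be told apart.

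Breakdown of an amino acid usually begins with removal of its amino group, after which the carbon skeleton enters the tricarboxylic acid cycle, gluconeogenesis or the pool of folate-bound 1-carbon units. Many of these enzymes, among them tryptophan 2,3-dioxygenase and methionine adenosyltransferase I, are made chiefly by hepatocytes, and their expression is a mark of the mature cell. The same cells make S-adenosylmethionine, the methyl donor, and turn the sulfur of methionine into cysteine, taurine and glutathione.

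Gene expression was measured by RNA sequencing of bulk tissue and the table used holds FPKM values without read counts; the reads were not analysed here, so sequencing depth is unknown. Between 9797 and 10658 genes per sample reached 1 FPKM. The extraction text of the labels names retina in place of liver. Of 12 retina markers 2 met the floor, Gnat1, a transducin subunit, at 1.95 to 3.57 FPKM and Rom1, a protein of the photoreceptor outer segment, at 2.07 to 3.25 FPKM over the 8 samples, and Rcvrn and Crx were listed at 0 in all 8. The 12 summed to between 4.38 and 7.25 FPKM, while 11 hepatocyte markers without albumin summed to between 13984 and 31592 FPKM. Albumin (Alb) itself was listed at 0 in the 5 samples of MCLI8 and MCLI12 and at 12946 to 16950 FPKM in MCLI8 + SALI4, and no level or fold is drawn from it. In bulk samples fewer hepatocytes and less RNA per hepatocyte cannot be told apart. Each sample is from a different mouse as far as the labels say, and p-values measure the spread between these samples.

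Summed over the 40 enzymes, the level was lowest in MCLI8 + SALI4. The summed FPKM of the 40 enzymes was 7525, 6381 and 6132 in MCLI8, 2282, 2529 and 2498 in MCLI8 + SALI4, and 6167 and 4449 in MCLI12. The share of all FPKM that these sums make up was 1.99%, 1.81% and 1.65% in MCLI8, 0.571%, 0.663% and 0.636% in MCLI8 + SALI4, and 1.69% and 1.37% in MCLI12. With Alb left out of the total, the share in MCLI8 + SALI4 was 0.593%, 0.686% and 0.665%. Each sample of MCLI8 + SALI4 was below each sample of the other groups, and the lower MCLI12 sample, 3e, lay below all 3 samples of MCLI8.

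Relative to MCLI8, 30 of the 40 enzymes were lower in MCLI8 + SALI4 and 1, Ahcy, was higher, at an adjusted p under 0.05 in limma on log2(FPKM + 1) with Benjamini-Hochberg adjustment over all 11007 genes. The fit called 39.1% of all genes in this comparison, 13.5% lower and 25.6% higher. The median log2 fold change of the enzymes was -1.28, against 0.13 over all genes, and 39 of the 40 enzymes had a negative value. Scaling the samples by median ratios moved the median of all genes from 0.13 to 0.0057 and that of the enzymes to -1.43, and under it the calls stayed at 30 lower and 1 higher, while 49.9% of all called genes were then higher where 65.4% were higher without scaling. The 9 enzymes not called were Sdsl, Acmsd, Bhmt, Cth, Csad, Dmgdh, Got1, Gpt and Agxt2. In a fit of these 2 groups alone, which leaves out the spread between the 2 MCLI12 samples, 38 enzymes were lower and Ahcy was higher, and Bhmt alone was not called (limma adjusted p = 0.0971), where that fit called 50.1% of all genes, 17.8% lower and 32.3% higher.

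**Figure D1:**
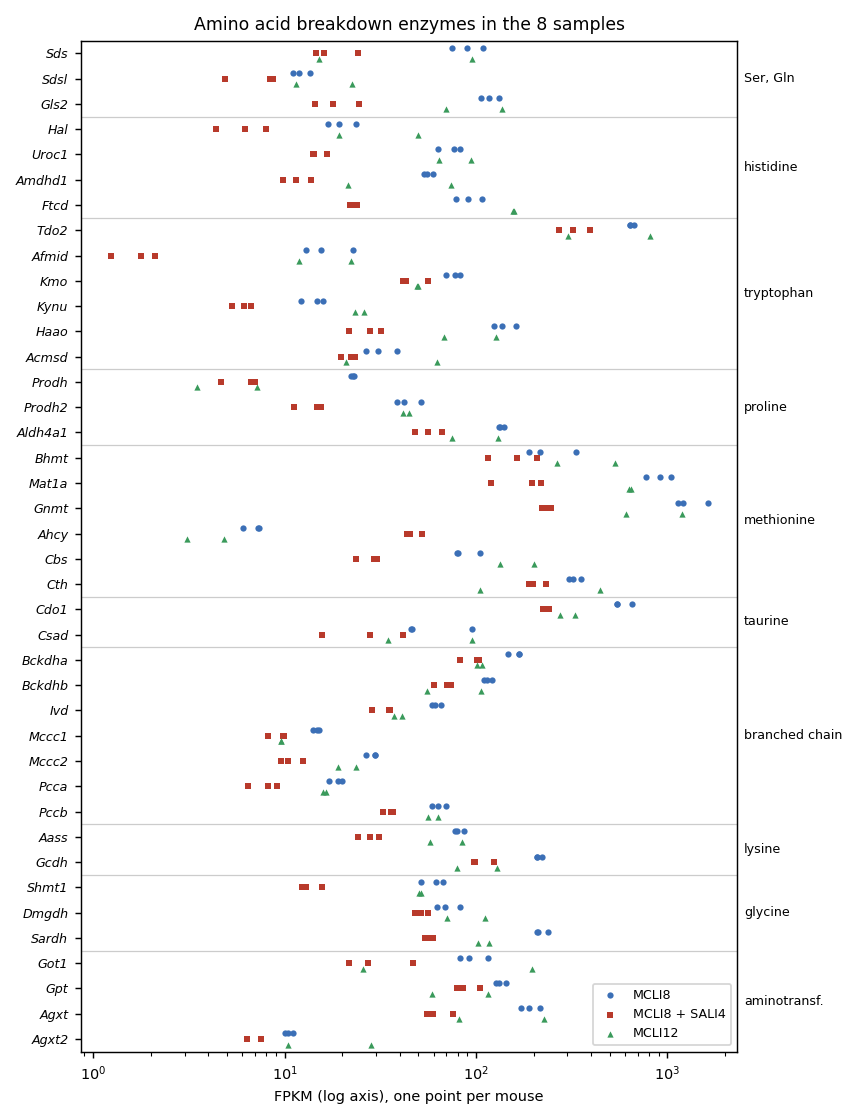
FPKM (log axis) of the 40 enzymes, 1 point for each mouse, in MCLI8 (blue circles), MCLI8 + SALI4 (red squares) and MCLI12 (green triangles), with the enzymes grouped by pathway. For 38 enzymes the 3 samples of MCLI8 + SALI4 lie below the 3 samples of MCLI8; Bhmt overlaps and Ahcy lies above. Of all 11007 genes 21.7% lie below in this way and 39.4% above.

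All 4 enzymes of histidine breakdown were lower in MCLI8 + SALI4. Hal, histidine ammonia lyase, which releases the amino group as the pathway starts, was at 23.6, 19.3 and 16.8 FPKM in MCLI8 and at 6.20, 4.38 and 7.95 FPKM in MCLI8 + SALI4, a log2 change of -1.56 ± 0.33 (SE; limma adjusted p = 0.00684). Uroc1, urocanase, the next enzyme, was at 82.3, 76.3 and 63.4 FPKM in MCLI8 and at 14.2, 14.1 and 16.7 FPKM in MCLI8 + SALI4, a log2 change of -2.23 ± 0.17 (limma adjusted p = 2.96e-05). In each of these genes the highest sample of MCLI8 + SALI4 was below the lowest of MCLI8. Amdhd1, imidazolonepropionase, fell from 53.2 to 59.8 FPKM in MCLI8 to 9.77 to 13.8 FPKM (log2 change -2.19 ± 0.37). Ftcd, which passes the formimino group of histidine to folate, fell from 108, 91.2 and 78.4 FPKM to 23.9, 22.1 and 22.1 FPKM (log2 change -1.97 ± 0.13, limma adjusted p = 1.32e-05).

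In the kynurenine route of tryptophan, 5 of 6 enzymes were lower. Tdo2, tryptophan 2,3-dioxygenase, the rate-limiting entry of the route in liver, was at 637, 672 and 638 FPKM in MCLI8 and at 272, 323 and 392 FPKM in MCLI8 + SALI4 (log2 change -0.99 ± 0.33, limma adjusted p = 0.0408). The groups did not overlap, but leaving out any 1 sample of either group ended this call, as did quantile scaling (limma adjusted p = 0.0541). Haao, which makes the precursor of quinolinate, was at 163, 136 and 124 FPKM in MCLI8 and at 21.7, 31.9 and 27.8 FPKM in MCLI8 + SALI4, a log2 change of -2.34 ± 0.24 (limma adjusted p = 0.00018). Kmo, kynurenine 3-monooxygenase, changed by -0.70 ± 0.14 and Kynu, kynureninase, by -1.11 ± 0.13 on the log2 scale. Acmsd, the enzyme that diverts the route away from NAD synthesis, was at 26.7 to 38.8 FPKM in MCLI8 and 19.8 to 23.3 FPKM in MCLI8 + SALI4 and was not called (limma adjusted p = 0.248).

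Afmid, the formamidase that releases kynurenine, had the most negative log2 change of the 40 enzymes as listed. It was at 22.6, 15.5 and 12.9 FPKM in MCLI8 and at 1.24, 1.79 and 2.11 FPKM in MCLI8 + SALI4, a log2 change of -2.71 ± 0.26 (limma adjusted p = 0.000129). Of its 50-base transcript windows 41.3% also occur in another gene, most of them in Gm20708, whose values were 12.4, 9.92 and 10.5 FPKM in MCLI8 and 4.00, 3.15 and 3.73 FPKM in MCLI8 + SALI4. The sum of Afmid and Gm20708 had a log2 change of -2.17 ± 0.25 (limma adjusted p = 0.000325). This was less negative than the changes of several other enzymes, among them Gls2 (-2.61), Gnmt (-2.47) and Mat1a (-2.38). Afmid also overlaps Tk1, thymidine kinase 1, on the opposite strand, and Tk1 was at 4.02, 2.93 and 3.05 FPKM in MCLI8 and 0.884, 2.25 and 0.765 FPKM in MCLI8 + SALI4. The library kit does not mark strand, so reads where these genes overlap cannot be assigned to either.

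Methionine enters the liver's methyl cycle through Mat1a, methionine adenosyltransferase I, and S-adenosylmethionine is used up by Gnmt, glycine N-methyltransferase. Mat1a was at 1042, 917 and 776 FPKM in MCLI8 and at 120, 197 and 218 FPKM in MCLI8 + SALI4, a log2 change of -2.38 ± 0.23 (limma adjusted p = 0.000133). Gnmt, the most abundant of the 40 transcripts in MCLI8, was at 1621, 1201 and 1133 FPKM there and at 247, 235 and 221 FPKM in MCLI8 + SALI4, a log2 change of -2.47 ± 0.26 (limma adjusted p = 0.000195). Every MCLI8 + SALI4 sample was far below every MCLI8 sample in both genes. Cbs, cystathionine beta-synthase, which commits homocysteine to cysteine synthesis, fell from 105, 79.4 and 81.0 FPKM to 23.5, 29.3 and 30.2 FPKM (log2 change -1.64 ± 0.19, limma adjusted p = 0.000329). Cth, the next enzyme, was at 305 to 352 FPKM in MCLI8 and 190 to 233 FPKM in MCLI8 + SALI4 without overlap, and was not called in the fit of all samples (limma adjusted p = 0.26) but was in the fit of these 2 groups (adjusted p = 0.00321).

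The 2 remaining enzymes of the cycle, Ahcy and Bhmt, each have a near-identical copy in the genome, and the FPKM of gene and copy have to be read together. Ahcy, S-adenosylhomocysteine hydrolase, and its copy Gm4737 have reading frames of 1299 bases that differ at 4 positions, and 66.0% of the 50-base transcript windows of Ahcy also occur in Gm4737. Bhmt, betaine-homocysteine methyltransferase, and Gm5096 differ at 4 of 1224 bases, and 24.1% of the windows of Bhmt occur in Gm5096. The 60 bases where each pair differs most are shown to make plain how little sequence tells gene and copy apart. They were read from the GENCODE M21 transcripts, positions are counted from 1 at the first base of the reading frame, and capitals mark the bases that differ: bases 415 to 474 for Ahcy and Gm4737, and bases 97 to 156 for Bhmt and Gm5096.
Ahcy: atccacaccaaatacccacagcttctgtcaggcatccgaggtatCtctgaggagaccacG
Gm4737: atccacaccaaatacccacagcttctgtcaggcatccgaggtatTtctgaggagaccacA
Bhmt: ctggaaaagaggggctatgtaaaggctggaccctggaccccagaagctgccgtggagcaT
Gm5096: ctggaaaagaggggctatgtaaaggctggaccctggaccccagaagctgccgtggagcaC

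Ahcy as listed was at 7.24, 6.06 and 7.33 FPKM in MCLI8, 52.0, 45.1 and 43.6 FPKM in MCLI8 + SALI4, and 4.84 and 3.10 FPKM in MCLI12, a log2 change of 2.60 ± 0.15 between the first 2 groups (limma adjusted p = 4.98e-06). Gm4737 was at 456, 413 and 400 FPKM in MCLI8, 145, 128 and 122 FPKM in MCLI8 + SALI4, and 325 and 233 FPKM in MCLI12. The listed FPKM of gene and copy thus moved in opposite directions, and the copy had the higher level in all 8 samples. Their sum was 463, 419 and 407 FPKM in MCLI8, 197, 173 and 166 FPKM in MCLI8 + SALI4, and 330 and 236 FPKM in MCLI12. The sum was lower in MCLI8 + SALI4 in every sample, by a log2 change of -1.27 ± 0.16 (limma adjusted p = 0.000567), opposite in direction to the change of Ahcy as listed. A sum of FPKM is only close to a sum of reads, because the 2 transcripts differ in length.

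Bhmt as listed was at 333, 189 and 217 FPKM in MCLI8 and at 116, 209 and 164 FPKM in MCLI8 + SALI4, and the groups overlapped (log2 change -0.59 ± 0.33, limma adjusted p = 0.187). Gm5096 was at 349, 211 and 208 FPKM in MCLI8 but at 11.5, 21.8 and 15.8 FPKM in MCLI8 + SALI4. Gene and copy were close to each other in all samples of MCLI8 and MCLI12, whereas Bhmt was far above Gm5096 in all 3 samples of MCLI8 + SALI4. The sum was 681, 400 and 425 FPKM in MCLI8 and 128, 231 and 180 FPKM in MCLI8 + SALI4, a log2 change of -1.48 ± 0.33 (limma adjusted p = 0.0083). With these sums, and those of the other 3 enzymes that share at least 20% of their windows with a listed gene, all 32 enzymes called were lower, and in the fit of the 2 groups alone all 40 were, where 13.6% and 17.9% of all genes were lower in these fits. Among the enzymes with at most 2% of their windows in any other gene, 21 were called lower and 0 higher. Cth, Got1, Gpt and Sdsl, also within this limit, were not called. Of all genes, whatever their shared windows, 13.5% were lower. The limit leaves out Ahcy (68.7% of windows shared), the only enzyme called higher as listed. These sums and limits were chosen after the values were seen. For Ahcy and for Bhmt the split between gene and copy differed between MCLI8 + SALI4 and the other groups. Alb was listed at 0 in all samples of those other groups and in none of MCLI8 + SALI4. The sample series divide in the same way. Whether values were assigned to genes alike in both series was not tested, which bears on every comparison of MCLI8 + SALI4.

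**Figure D2:**
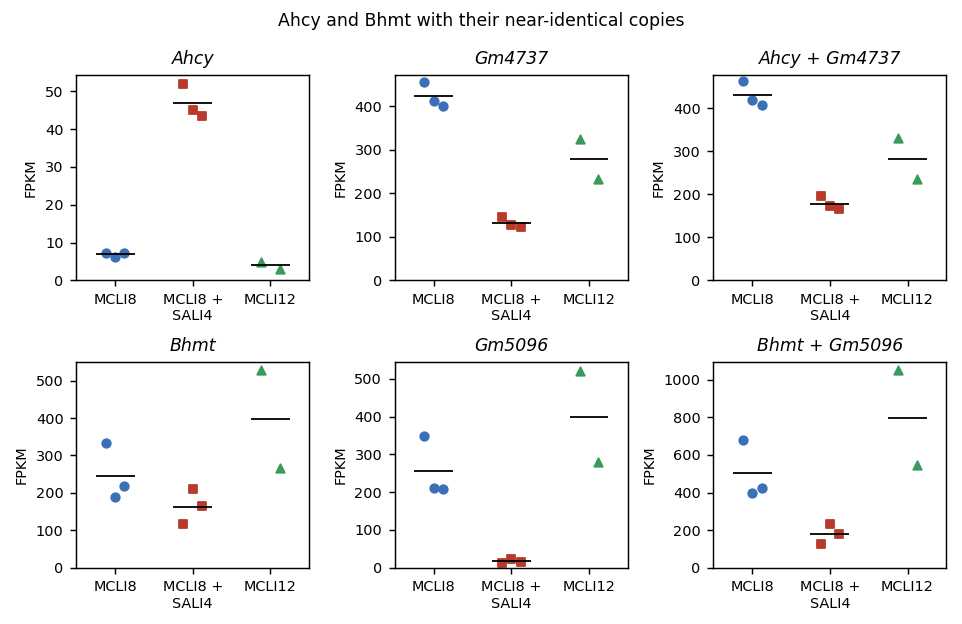
FPKM of Ahcy, its copy Gm4737 and their sum (top) and of Bhmt, its copy Gm5096 and their sum (bottom), 1 point for each mouse and a line at the group mean. Ahcy is highest and Gm4737 lowest in MCLI8 + SALI4, and both sums are lower in its 3 samples than in the 3 samples of MCLI8.

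Of the enzymes that turn cysteine into taurine, Cdo1, cysteine dioxygenase, was at 652, 548 and 542 FPKM in MCLI8 and at 233, 241 and 223 FPKM in MCLI8 + SALI4 (log2 change -1.31 ± 0.14, limma adjusted p = 0.000246). Csad, the decarboxylase of the next step, spread more widely, at 95.3, 46.2 and 45.9 FPKM in MCLI8 and 15.7, 41.5 and 28.1 FPKM in MCLI8 + SALI4, and was not called (limma adjusted p = 0.0877). Sds, serine dehydratase, fell from 109, 89.8 and 75.1 FPKM to 16.1, 14.6 and 24.1 FPKM (log2 change -2.28 ± 0.55, limma adjusted p = 0.0124). This call was lost without sample 1a, and 21.2% of the windows of Sds are shared with other genes. Gls2, the liver glutaminase, was at 132, 117 and 107 FPKM in MCLI8 and at 14.5, 17.9 and 24.5 FPKM in MCLI8 + SALI4, a log2 change of -2.61 ± 0.27 (limma adjusted p = 0.000159). Sdsl, a relative of Sds, was at 11.1 to 13.6 FPKM and at 4.85 to 8.74 FPKM, and was not called (limma adjusted p = 0.0695).

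All 7 enzymes of branched chain amino acid breakdown were lower in MCLI8 + SALI4. Their log2 changes ran from -0.62 to -1.33 with a median of -0.85, and those of the 4 histidine enzymes from -1.56 to -2.23. Bckdha and Bckdhb, the E1 subunits of the branched chain ketoacid dehydrogenase, changed by -0.75 ± 0.13 and -0.75 ± 0.22, and the call of Bckdhb was lost when any 1 sample of MCLI8 or MCLI8 + SALI4 was left out. Ivd, isovaleryl-CoA dehydrogenase of the leucine route, was at 65.9, 61.3 and 59.2 FPKM in MCLI8 and at 28.7, 35.7 and 35.2 FPKM in MCLI8 + SALI4. Mccc2, a subunit of methylcrotonyl-CoA carboxylase, had the largest fall of the 7, from 29.5, 29.7 and 26.6 FPKM to 9.56, 10.4 and 12.5 FPKM (log2 change -1.33 ± 0.13, limma adjusted p = 0.000134). Its partner subunit Mccc1 changed by -0.62 ± 0.10. The subunits of propionyl-CoA carboxylase, Pcca and Pccb, changed by -1.15 ± 0.13 and -0.85 ± 0.12. No sample of MCLI8 + SALI4 reached the lowest sample of MCLI8 in any of the 7 genes.

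The 3 enzymes of proline and hydroxyproline breakdown and both enzymes of lysine breakdown were lower as well. Prodh, proline dehydrogenase, was at 23.0, 22.3 and 22.8 FPKM in MCLI8 and at 4.67, 6.63 and 7.03 FPKM in MCLI8 + SALI4 (log2 change -1.75 ± 0.22, limma adjusted p = 0.000555). Prodh2, hydroxyproline dehydrogenase, and Aldh4a1, the next dehydrogenase of both routes, changed by -1.61 ± 0.15 and -1.25 ± 0.21. Aass, which opens the lysine route, fell from 77.2, 86.5 and 79.7 FPKM to 24.2, 27.8 and 31.3 FPKM (log2 change -1.52 ± 0.16, limma adjusted p = 0.000221). Gcdh, glutaryl-CoA dehydrogenase further down that route, fell from 222, 209 and 208 FPKM to 124, 98.2 and 97 FPKM (log2 change -1.01 ± 0.19).

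Glycine and the 1-carbon pool showed an uneven pattern. Shmt1, cytosolic serine hydroxymethyltransferase, was at 67.1, 61.9 and 51.8 FPKM in MCLI8 and at 13.0, 15.6 and 12.3 FPKM in MCLI8 + SALI4, a log2 change of -2.06 ± 0.13 (limma adjusted p = 9.96e-06). Sardh, sarcosine dehydrogenase, fell from 236, 211 and 209 FPKM to 54.1, 59.8 and 56.9 FPKM (log2 change -1.92 ± 0.12, limma adjusted p = 6.98e-06). Dmgdh, dimethylglycine dehydrogenase, which makes the sarcosine that Sardh uses, was at 82.1, 68.7 and 62.6 FPKM and at 55.9, 48.1 and 51.7 FPKM, and was not called (limma adjusted p = 0.0897). Of the 4 aminotransferases only Agxt, alanine-glyoxylate aminotransferase, was called, falling from 216, 171 and 190 FPKM to 59.2, 75.6 and 55.7 FPKM (log2 change -1.59 ± 0.33, limma adjusted p = 0.0062). Got1, aspartate aminotransferase, was at 116, 91.6 and 82.9 FPKM and at 47.0, 21.6 and 27.2 FPKM without overlap (log2 change -1.63 ± 0.63, limma adjusted p = 0.0717). Gpt and Agxt2 changed by -0.58 ± 0.23 and -0.58 ± 0.29 and were not called, and in the fit of these 2 groups alone Got1, Gpt and Agxt2 were all called lower (adjusted p = 0.00174, 0.00712 and 0.00228).

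The promoters of 3 enzymes with large falls and no shared transcript sequence are shown, picked for their falls in MCLI8 + SALI4 against MCLI8 (in MCLI12 against MCLI8 they were at -0.61, -0.59 and 0.07 for Gnmt, Haao and Uroc1, and none was called): the 250 bases before the RefSeq transcription start of Gnmt (chr17:46729166-46729415, minus strand), Haao (chr17:83846791-83847040, minus strand) and Uroc1 (chr6:90333039-90333288, plus strand), on GRCm38.p6, each written 5′ to 3′ in the direction of transcription. Capitals mark matches to the motifs searched on both strands.
Gnmt: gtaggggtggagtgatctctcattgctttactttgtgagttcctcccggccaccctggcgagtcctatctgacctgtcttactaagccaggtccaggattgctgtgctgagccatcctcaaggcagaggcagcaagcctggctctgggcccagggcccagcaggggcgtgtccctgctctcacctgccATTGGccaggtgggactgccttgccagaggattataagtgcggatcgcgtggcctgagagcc
Haao: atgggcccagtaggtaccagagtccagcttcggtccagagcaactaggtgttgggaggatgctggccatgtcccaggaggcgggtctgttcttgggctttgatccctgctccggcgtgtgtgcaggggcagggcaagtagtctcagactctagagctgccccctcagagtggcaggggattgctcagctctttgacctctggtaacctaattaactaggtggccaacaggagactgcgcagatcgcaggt
Uroc1: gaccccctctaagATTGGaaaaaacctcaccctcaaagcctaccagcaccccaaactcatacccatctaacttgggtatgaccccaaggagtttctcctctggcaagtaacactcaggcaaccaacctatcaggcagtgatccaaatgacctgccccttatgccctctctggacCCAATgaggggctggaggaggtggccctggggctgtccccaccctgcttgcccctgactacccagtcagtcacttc
The motifs searched were the CCAAT box, TATAAA, the GC box GGGCGG, the E-box CACGTG, the C/EBP core TTGCNNAA and the HNF4A site CAAAGTCCA. CCAAT was in 20 of 36 promoter windows of 32 enzymes (55.6%) against 33.8% of all 32851 windows. TATAAA was in 13.9% against 12.4%, GGGCGG in 30.6% against 32.7%, CACGTG in 5.56% against 6.02%, and TTGCNNAA in 11.1% against 9.56%. CAAAGTCCA was in 2 overlapping windows of 1 enzyme, Agxt2 (5.56% of windows), against 0.384% of all windows. The median number of CpG dinucleotides was 6 in the enzymes' windows and 6 in all windows. Gnmt had 1 match and Uroc1 had 2, all to CCAAT, and the window of Haao held no match to these letters. Cdo1, Cth, Gls2, Gpt, Kynu, Mat1a, Sds and Sdsl had no entry.

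In MCLI12, 9 of the 40 enzymes were lower and 3 were higher than in MCLI8, where 20.0% of all genes were called, 6.90% lower and 13.1% higher. The 4 further weeks of MCLI and the tumor tissue of this group cannot be told apart. The median log2 change of the enzymes was -0.42, against 0.12 over all genes, and 30 of the 40 values were negative. The count rests on single samples: it was 21 without 2e, with 19 lower and 2 higher, 14 without 3e, with 7 lower and 7 higher, and 7 without 3a. Of all genes 36.1%, 15.5% and 8.54% were called in these fits. Median-ratio scaling gave 10 lower and 2 higher, and moved the share of all called genes that were higher from 65.4% to 48.4%.

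Prodh had the most negative change in MCLI12, at 7.20 and 3.47 FPKM against 23.0, 22.3 and 22.8 FPKM in MCLI8 (log2 change -1.97 ± 0.25, limma adjusted p = 0.0021). Prodh2 and Aldh4a1 were at 41.6 and 44.8 FPKM and at 130 and 75.1 FPKM, and neither was called. Gcdh was at 128 and 79.4 FPKM (log2 change -1.07 ± 0.21, limma adjusted p = 0.0117), and Sardh at 118 and 102 FPKM (log2 change -0.99 ± 0.13, limma adjusted p = 0.00264). In Prodh, Gcdh and Sardh both MCLI12 samples were below all MCLI8 samples. Cdo1 followed at 330 and 273 FPKM (log2 change -0.94 ± 0.16, limma adjusted p = 0.0067). Ivd, Kmo, Bckdha and Mccc1 changed by -0.65 to -0.57, and Ahcy summed with Gm4737 by -0.62 ± 0.18 (limma adjusted p = 0.0449). The calls of Ivd (without 1a), Mccc1 (without 3a), Bckdha (without 1a, 3a or 3e), Kmo (without 1a, 2a, 3a or 3e) and Ahcy as listed (without 1a, 3a or 3e) were lost when the sample named was left out. Bckdha was also not called under quantile scaling (limma adjusted p = 0.0941), and in the fit of these 2 groups neither Ahcy as listed (limma adjusted p = 0.064) nor its sum with Gm4737 (limma adjusted p = 0.0945) was called.

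The 3 enzymes that were higher in MCLI12 were Ftcd, Kynu and Cbs. Ftcd was at 158 and 156 FPKM against 108, 91.2 and 78.4 FPKM in MCLI8 (log2 change 0.77 ± 0.15, limma adjusted p = 0.0114). Kynu was at 23.3 and 26.1 FPKM against 15.8, 14.8 and 12.2 FPKM (log2 change 0.76 ± 0.15, limma adjusted p = 0.0109). Cbs was at 201 and 134 FPKM against 105, 79.4 and 81.0 FPKM (log2 change 0.90 ± 0.21, limma adjusted p = 0.0229), a call that was lost under median-ratio scaling (adjusted p = 0.0681), in the fit of these 2 groups alone (adjusted p = 0.0545) and without 2a, 3a or 2e. Both MCLI12 samples were above all MCLI8 samples in each of the 3 genes, and all 3 genes had negative changes in MCLI8 + SALI4: -1.97, -1.11 and -1.64 for Ftcd, Kynu and Cbs. Both comparisons use the same MCLI8 samples.

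**Figure D3:**
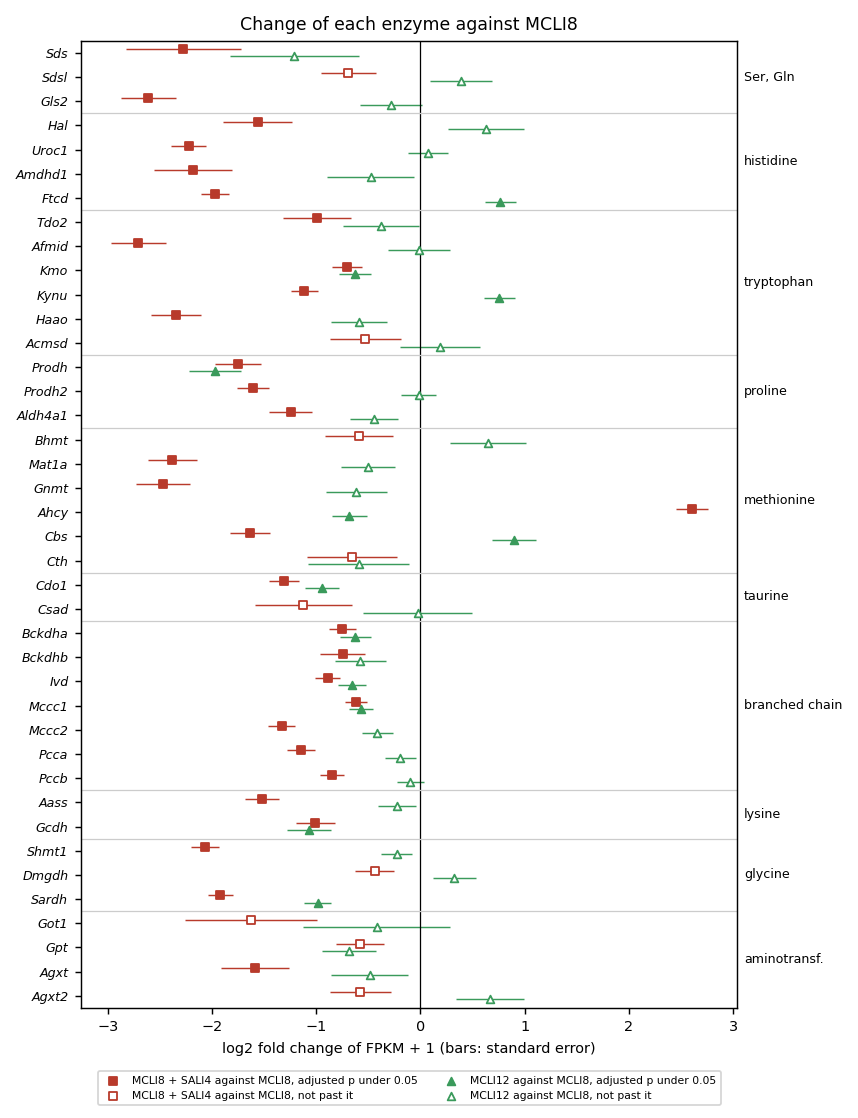
Log2 fold change of FPKM + 1 against MCLI8 with its standard error for the 40 enzymes, in MCLI8 + SALI4 (red squares) and MCLI12 (green triangles), filled where the adjusted p was under 0.05. The red values lie left of 0 for 39 enzymes, and the green values lie around a median of -0.42 with Prodh far to the left and Ftcd, Kynu and Cbs filled on the right.

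The 2 MCLI12 samples stood apart from each other in many of these enzymes. They were at least 1 apart on the log2 scale in 10 of the 40 enzymes (25%), against 6.95% of all 11007 genes, and 29 of the 40 were higher in 2e, against 39.0% of all genes. In MCLI8 1 of the 40 enzymes spanned that much between its lowest and highest sample, and in MCLI8 + SALI4 2 did (5%), where 0.963% and 4.20% of all genes did. Sds was at 95.2 FPKM in 2e and 15.2 FPKM in 3e, Got1 at 196 and 25.5 FPKM, Cth at 442 and 105 FPKM, and Amdhd1 at 74.4 and 21.4 FPKM. In all 4 genes 3e lay below the range of MCLI8, and 2e lay above that range except for Sds, where it lay within it. Tdo2 went the other way, at 304 FPKM in 2e and 814 FPKM in 3e, as did Csad, at 34.9 and 94.7 FPKM. Agreement between the 2 samples was close in other enzymes, among them Mccc1 (9.60 and 9.57 FPKM), Kmo (48.9 and 49.5 FPKM), Shmt1 (50.5 and 51.6 FPKM) and Mat1a (630 and 647 FPKM).

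**Figure D4:**
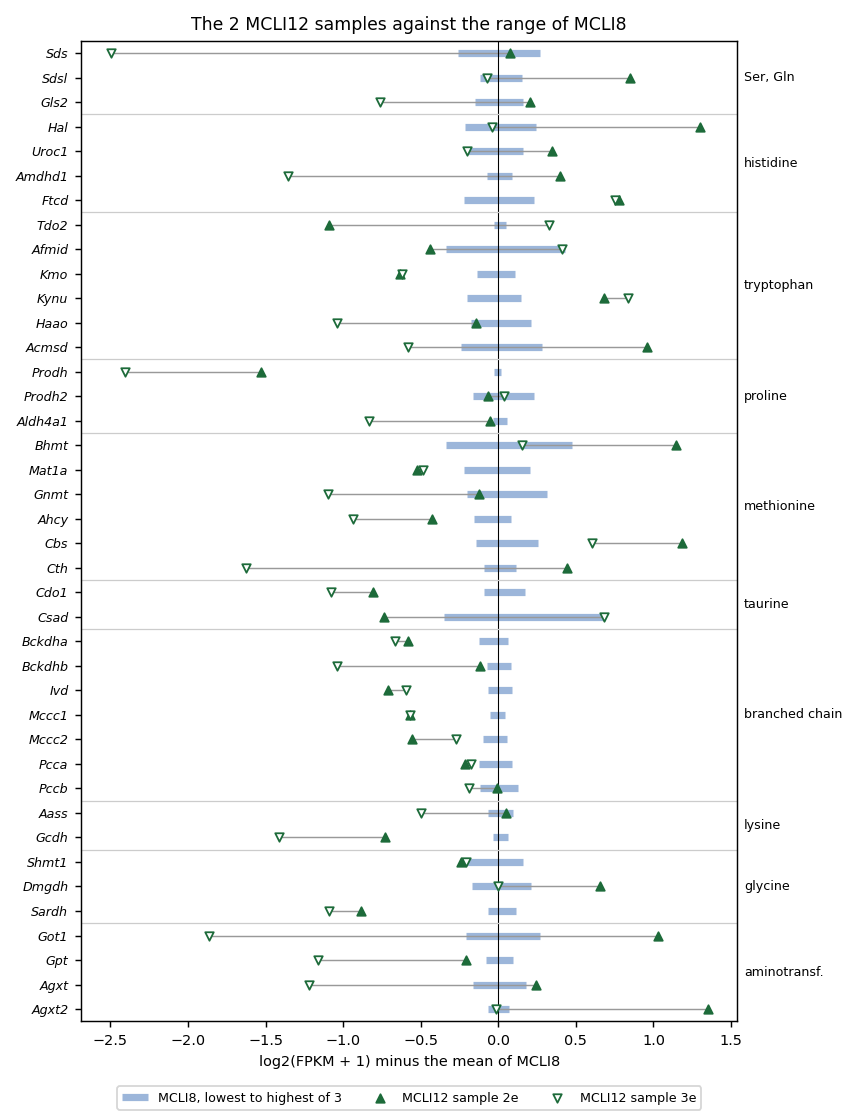
Log2(FPKM + 1) of the MCLI12 samples 2e (filled triangles) and 3e (open triangles) minus the mean of MCLI8 for each enzyme, with blue bars from the lowest to the highest of the 3 MCLI8 samples. Sds, Got1, Cth and Amdhd1 show 3e far left of the blue bar, and Mccc1, Kmo and Ftcd show both samples at nearly the same value.

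Set against MCLI12, the group that was equally long under injury, MCLI8 + SALI4 had 24 of the 40 enzymes lower and 1 higher, Ahcy, where 34.2% of all genes were called, 16.1% lower and 18.1% higher. The median log2 change of the enzymes was -1.07, against 0.0070 over all genes. In the fit of these 2 groups alone 17 enzymes were lower and Ahcy higher, where 9.59% and 11.7% of all genes were, and Sdsl, Amdhd1, Aldh4a1, Bhmt, Dmgdh, Agxt and Agxt2 were no longer called. Ftcd, Afmid and Cbs had the most negative changes, at -2.74 ± 0.15, -2.69 ± 0.30 and -2.53 ± 0.21 (limma adjusted p = 3.4e-06, 0.0003 and 5.68e-05). Summed with Gm20708, Afmid was at -2.07 ± 0.28 (limma adjusted p = 0.00092), less negative than Gls2 (-2.33), Uroc1 (-2.30) and Hal (-2.19). In the fit of all 8 samples the 4 histidine enzymes, at -1.71 to -2.74, and the 3 of glycine and the 1-carbon pool, at -0.77 to -1.84, were lower, and in the fit of these 2 groups Amdhd1 (limma adjusted p = 0.0516) and Dmgdh (0.0578) missed the threshold. Prodh was among the 4 enzymes with a positive value and was not called (0.22 ± 0.25, limma adjusted p = 0.536), and its level was low in both groups. The branched chain enzymes split: Mccc2, Pcca and Pccb were lower, at -0.92, -0.95 and -0.75, while Bckdha, Bckdhb, Ivd and Mccc1 were at -0.05 to -0.24 and were not called. Ahcy as listed was at 3.29 ± 0.17, and its sum with Gm4737 at -0.65 ± 0.18 (limma adjusted p = 0.0248), a call that was lost in the fit of these 2 groups (limma adjusted p = 0.0787). The calls of Agxt, Agxt2, Aldh4a1, Bhmt, Dmgdh and Sdsl in this comparison were each lost when 1 or more of the samples were left out. Bhmt as listed was at -1.24, and its sum with Gm5096 at -2.11 ± 0.36 (limma adjusted p = 0.00305, and 0.0119 in the fit of these 2 groups). Without 2e 21 enzymes were lower and 4 higher, where 23.6% and 18.7% of all genes were, with Prodh (0.65), Cth (0.97) and Gpt (0.58) called higher beside Ahcy.

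A wider list of 43 genes for other steps of the same pathways held 40 that met the floor, and 22 of these were lower and 4 higher in MCLI8 + SALI4 than in MCLI8, where 13.5% and 25.6% of all genes were, with a median log2 change of -0.56. The largest called falls were in Suox, sulfite oxidase (-1.74 ± 0.22), Mpst, mercaptopyruvate sulfurtransferase (-1.56 ± 0.19), and Gcat, which belongs to threonine breakdown (-1.42 ± 0.16) and shares 46.4% of its 50-base windows with other genes. The largest called rises were in Mtrr, methionine synthase reductase (0.74 ± 0.11), Asrgl1, an asparaginase (0.73 ± 0.18), and Aldh18a1, which makes proline (0.56 ± 0.17, limma adjusted p = 0.0308). In MCLI12 against MCLI8 9 of the 40 were lower and 1 was higher, where 6.90% and 13.1% of all genes were. Ethe1, persulfide dioxygenase, Hibch of the valine route and Ddo, D-aspartate oxidase, had the most negative changes among those called, at -1.20, -0.99 and -0.93, and Aldh18a1 was the 1 that was higher (1.21 ± 0.19, limma adjusted p = 0.00515). Between MCLI8 + SALI4 and MCLI12 15 of the 40 were called, where 34.2% of all genes were. Of these 15, 12 were lower, where 16.1% of all genes were, led by Aldh7a1 of the lysine route (-1.56 ± 0.14), Mpst (-1.18) and Suox (-1.07). The other 3 were higher, where 18.1% of all genes were: Mtrr (0.64), Ethe1 (0.60) and Hibch (0.48).

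Several breakdown enzymes have an isoenzyme, and other enzymes make amino acids. Of 17 such genes 15 met the floor. In MCLI8 + SALI4 against MCLI8 5 of the 15 were higher and 3 lower, shares near those of all genes (25.6% higher and 13.5% lower), with a median log2 change of 0.25 against 0.13 over all genes. Psat1, phosphoserine aminotransferase of serine synthesis, was at 1.56, 1.96 and 3.67 FPKM in MCLI8, 43.1, 27.8 and 34.4 FPKM in MCLI8 + SALI4, and 11.0 and 26.6 FPKM in MCLI12. Asns, asparagine synthetase, was at 14.4, 12.5 and 28.0 FPKM in MCLI8, 80.9, 82.2 and 80.4 FPKM in MCLI8 + SALI4, and 66.1 and 61.2 FPKM in MCLI12. Both were higher than in MCLI8 in each other group: Psat1 by 3.44 ± 0.34 and 2.47 ± 0.37, and Asns by 2.17 ± 0.25 and 1.83 ± 0.28 on the log2 scale, with no overlap.

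Among the isoenzymes, Got2, mitochondrial aspartate aminotransferase, rose from 102, 99.7 and 120 FPKM to 254, 237 and 240 FPKM (log2 change 1.18 ± 0.15, limma adjusted p = 0.000538). Of the 50-base windows of Got2 25.6% occur in other genes, no listed one of which holds 20% of them. Mat2a, the methionine adenosyltransferase of other tissues, was at 16.9, 19.2 and 20.5 FPKM in MCLI8 and at 20.9, 17.7 and 15.5 FPKM in MCLI8 + SALI4, and was not called in any comparison (limma adjusted p = 0.835 in this one). Mat1a stayed above it in all 8 samples. Shmt2, Ido2 and Bcat2 were lower, at -1.14, -1.34 and -0.54, and Bcat1, the cytosolic branched chain aminotransferase, did not meet the floor.

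In MCLI12 against MCLI8 3 of these 15 genes were higher, Psat1 and Asns among them, and 2 were lower, Bcat2 (-0.50 ± 0.12) and Glul, where 13.1% and 6.90% of all genes were. Glul, glutamine synthetase of the hepatocytes around the central vein, was at 214, 188 and 234 FPKM in MCLI8, 173, 227 and 158 FPKM in MCLI8 + SALI4, and 52.2 and 22.7 FPKM in MCLI12 (log2 change -2.58 ± 0.32 in MCLI12, limma adjusted p = 0.00191). Both MCLI12 samples were below all 6 samples of the other groups. Between MCLI8 + SALI4 and MCLI12 Glul (2.38), Got2 (1.37) and Psph, the last enzyme of serine synthesis (0.62), were higher and Shmt2 (-0.90) and Gpt2 (-0.67) lower, where 18.1% and 16.1% of all genes were.

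**Figure D5:**
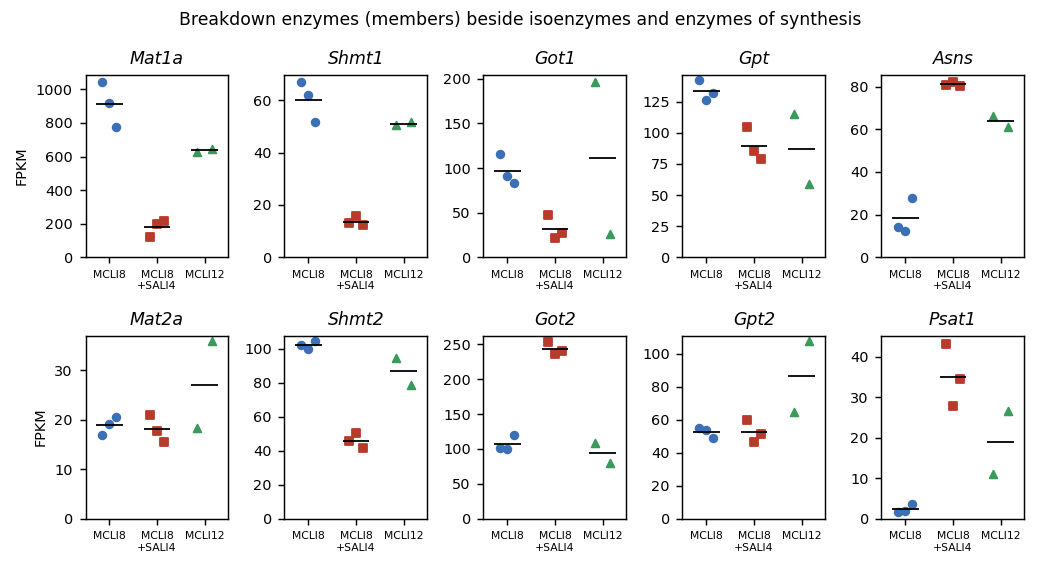
FPKM of 4 breakdown enzymes (Mat1a, Shmt1, Got1, Gpt) above their isoenzymes (Mat2a, Shmt2, Got2, Gpt2), and of Asns above Psat1, 1 point for each mouse with a line at the group mean and a separate axis starting at 0 for each gene. Mat1a and Shmt1 are low in MCLI8 + SALI4, where Got2, Asns and Psat1 are at their highest group mean.

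Of 14 regulators of these enzymes, transcription factors of the hepatocyte and the glucagon receptor, 5 were lower in MCLI8 + SALI4 than in MCLI8, where 39.1% of all genes were called and 13.5% were lower, and the others were not called. Nr1i3, the constitutive androstane receptor, was at 33.0, 25.1 and 27.1 FPKM in MCLI8, 10.3, 11.1 and 10.9 FPKM in MCLI8 + SALI4, and 7.50 and 5.69 FPKM in MCLI12, with log2 changes of -1.31 ± 0.14 and -1.95 ± 0.15. Of its windows 63.6% occur in Tomm40l, which was at 1.98, 2.37 and 2.42 FPKM in MCLI8, 1.86, 2.20 and 1.63 FPKM in MCLI8 + SALI4, and 2.34 and 3.03 FPKM in MCLI12. Gcgr, the glucagon receptor, changed by -0.85 ± 0.20 and Klf15, a factor known to control amino acid breakdown genes, by -0.79 ± 0.15 in MCLI8 + SALI4. Hnf4a, a master factor of the hepatocyte, was at 93.2, 91.3 and 90.4 FPKM in MCLI8, 83.1, 85.3 and 81.2 FPKM in MCLI8 + SALI4, and 104 and 99.2 FPKM in MCLI12, and was not called in any comparison. In MCLI12 against MCLI8 Foxa3 (1.20) and Prox1 (0.95) were higher and Nr1i3, Cebpb (-1.26) and Klf15 (-0.71) lower, where 13.1% of all genes were higher and 6.90% lower. Between MCLI8 + SALI4 and MCLI12 Cebpb (1.44) and Nr1i3 (0.64) were higher, and of 6 that were lower Foxa3 (-1.52), Prox1 (-1.12) and Gcgr (-1.01) led, where 18.1% of all genes were higher and 16.1% lower.

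Markers of cell types were read beside these results. Of 11 hepatocyte markers, Alb left out, 3 were lower and 1, Apoa1, was higher in MCLI8 + SALI4 than in MCLI8 (39.1% of all genes were called). Against MCLI12, 5 of the 11 were lower in MCLI8 + SALI4 and 0 higher, where 16.1% and 18.1% of all genes were. In MCLI12 against MCLI8 1 was higher and 1 lower. The 11 summed to 17217 to 22810 FPKM in MCLI8, 13984 to 17014 FPKM in MCLI8 + SALI4, and 17768 and 31592 FPKM in MCLI12. The 10 cholangiocyte markers, of which 7 met the floor, summed to 14.9 to 22.2 FPKM in MCLI8, 46.5 to 52.3 FPKM in MCLI8 + SALI4, and 40.2 and 361 FPKM in MCLI12, with 2 and 4 of the 7 higher than in MCLI8, where 25.6% and 13.1% of all genes were. Spp1 alone was at 311 FPKM in 3e, and the other 9 markers summed to 6.66 to 10.4 FPKM in MCLI8, 22.9 to 35.7 FPKM in MCLI8 + SALI4, and 17.9 and 50.2 FPKM in MCLI12. The 11 macrophage markers summed to 157 to 190 FPKM in MCLI8, 170, 443 and 145 FPKM in C096, C097 and C098, and 182 and 142 FPKM in MCLI12. In this sum C097 alone stood above the other samples. Without C097 28 enzymes were lower and 1 higher in MCLI8 + SALI4 than in MCLI8, where 13.8% and 21.0% of all genes were. Of the 9 macrophage markers that met the floor 1, Cd14, was higher in MCLI8 + SALI4 than in MCLI8 and 0 were lower. Of all genes 25.6% were higher and 13.5% lower. Cd14 was at 45.9, 26.3 and 31.7 FPKM in C096, C097 and C098, against 9.30, 10.3 and 11.2 FPKM in MCLI8. The 9 endothelial markers summed to 60.6 to 66.0 FPKM in MCLI8, 29.4 to 50.7 FPKM in MCLI8 + SALI4, and 33.4 and 39.4 FPKM in MCLI12. In MCLI8 + SALI4 and in MCLI12 4 of the 9 were lower than in MCLI8, where 13.5% and 6.90% of all genes were. In MCLI8 + SALI4 1 of the 9 was higher, where 25.6% of all genes were. The 10 markers of stellate cells and fibroblasts summed to 91.9 to 103 FPKM, 94.3 to 155 FPKM, and 81.4 and 104 FPKM, of which Dcn, decorin, alone made up 68.3 to 75.9 FPKM, 77.2 to 116 FPKM, and 48.1 and 40.5 FPKM. In MCLI12 the collagen genes Col1a1, Col1a2 and Col3a1 were higher than in MCLI8, with log2 changes of 1.61, 1.29 and 1.60, and Dcn was lower (-0.71), where 13.1% and 6.90% of all genes were. Col3a1 was at 2.67, 2.56 and 4.73 FPKM in MCLI8 and at 8.85 and 15.5 FPKM in MCLI12, and was the 1 marker of this list called in MCLI8 + SALI4 against MCLI8, where it was lower (-1.09). None of the 10 lymphocyte markers met the floor. The part of these cells in the values of the 40 enzymes was not tested. Fah itself, in which all mice carry the deletion, was listed at 16.8, 16.5 and 15.6 FPKM in MCLI8, 5.02, 6.11 and 6.36 FPKM in MCLI8 + SALI4, and 14.4 and 13.5 FPKM in MCLI12. Because every group carries the same deletion, these values check no label between groups.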

How the data were processed

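RNA was sequenced from bulk tissue of 8 Fah-/- mice with an Illumina TruSeq kit that does not mark strand. The authors deposited 1 table of FPKM values (fragments scaled to transcript length and library size) for 22504 genes. The table holds no counts and the raw reads, which the study states are public, were not analysed here, so depth was not recovered and no counting interval is given. The submitters' processing notes name Bowtie 0.12.2 and the mouse build mm8, and the quantifier and annotation are not given in the sources used here. Groups came from the sample labels, and 0 columns belonged to other samples.

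The 40 enzymes and all other lists were chosen with earlier results of these data known. Genes with at least 1 FPKM in at least 2 of 8 samples (11007) were fitted together as log2(FPKM + 1) with limma 3.58.1 in R 4.3.3 (eBayes with a trend, two-sided), and p-values were adjusted by the Benjamini-Hochberg method over all 11007 genes; a gene was called at an adjusted p under 0.05. Fold changes are on the log2(FPKM + 1) scale, which understates changes of low genes. All 40 enzymes are accounted for, and from the lists of other steps, isoenzymes and regulators the 3 largest called rises and falls in each comparison were named, with Mat2a and Bcat1. Hnf4a was named outside this rule, after its values were seen. The other genes of these lists are given as counts only, and not every gene that this rule picks is reported here. Gene symbols were matched through the gene tables of the reference, with older symbols where needed.

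All 50-base windows of a gene's transcripts in GENCODE M21 were looked up in the transcripts of every other gene, both strands included, and the percentage found is its shared sequence. FPKM of a gene and its copy were summed where the copy held at least 20% of the windows. Promoter windows of 250 bases came from RefSeq on GRCm38.p6, with entries for 32 of the 40 enzymes. Alternatives were another pseudocount, filter, scaling, variance prior, call rule and sample set, each sample left out in turn, and the replicate number as a block. The fit was also run on simulated data, but the outcome is not reported here and no result rests on it.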

Additional observations from a re-analysis of the deposited data

How the results depend on the processing

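Against MCLI8, the count of enzymes called in MCLI8 + SALI4 (31) stayed between 24 and 40 under every alternative, and against MCLI12 (25) between 18 and 30. In MCLI12 against MCLI8 the count of 12 fell to 2 when a log2 change of at least 1 was also required, and ranged from 7 to 21 when 1 sample was left out. No fit paired the mice by design: MCLI8 and MCLI12 share the numbers 2 and 3, but the mice differ and the 2 minus 3 differences of the groups correlated at r = -0.179 over 11007 genes, which are not independent. With the replicate numbers blocked over those 4 samples 1 enzyme was called (169 of all genes), with the numbers crossed 0 (2 genes, and 13 enzymes at an unadjusted p under 0.05), and without a block 0 in limma (57 genes, and 12 enzymes at an unadjusted p under 0.05). In each of these 3 fits the log2 changes of Afmid, Prodh2 and Csad were positive, at 0.20, 0.097 and 0.32. The crossed numbers, the fit without a block and the sums with copies were chosen after seeing the data.

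Signs also turned for Uroc1 under median-ratio scaling (-0.073), for Prodh2 (0.021) and Csad (0.12) under quantile scaling, all in MCLI12 against MCLI8, and for Gcdh (-0.19) and Gpt (-0.11) under quantile scaling in MCLI8 + SALI4 against MCLI12. None of these 5 values, nor those of Afmid, Prodh2 and Csad above, was called. Ahcy summed with Gm4737 was at -1.27 against MCLI8 and at -0.65 against MCLI12 in MCLI8 + SALI4, also with only the 2 groups compared (adjusted p = 9.53e-05 and 0.0787).

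With 1 sample left out, values in MCLI12 against MCLI8 ran from -0.50 to 0.052 for Aass, -0.58 to 0.96 for Acmsd, -0.44 to 0.41 for Afmid, -1.22 to 0.24 for Agxt, -0.017 to 1.35 for Agxt2, -1.35 to 0.40 for Amdhd1, -0.74 to 0.68 for Csad, -1.62 to 0.44 for Cth, -0.0031 to 0.65 for Dmgdh, -0.76 to 0.20 for Gls2, -1.87 to 1.03 for Got1, -0.041 to 1.30 for Hal, -0.10 to 0.097 for Prodh2, -2.50 to 0.077 for Sds, -0.075 to 0.85 for Sdsl, -1.09 to 0.33 for Tdo2 and -0.21 to 0.35 for Uroc1. In MCLI8 + SALI4 against MCLI12 they ran from -1.49 to 0.056 for Acmsd, -0.63 to 0.29 for Bckdhb, -1.10 to 0.97 for Cth, -0.28 to 0.41 for Gcdh, -2.66 to 0.24 for Got1, -0.37 to 0.58 for Gpt, -0.21 to 0.0016 for Kmo, -0.090 to 0.032 for Mccc1, -0.22 to 0.65 for Prodh, -2.35 to 0.22 for Sds and -1.32 to 0.097 for Tdo2. Where this leaves 1 sample in MCLI12, that sample is assumed to vary like the other groups.

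Over all genes, 4305 calls in MCLI8 + SALI4 against MCLI8 became 1260 with the fold limit and 2676 without 1a. The 2199 calls in MCLI12 against MCLI8 became 640 with the fold limit, 891 without 1a, 1147 without 2a, 940 without 3a and 3978 without 2e. The 3764 calls in MCLI8 + SALI4 against MCLI12 became 1378 with the fold limit and 2344 with only the 2 groups. The share of called genes that were higher moved from 65.4% to 43.8% and 47.2% under quantile scaling in the comparisons of MCLI8 + SALI4 and MCLI12 with MCLI8. The cause of these shifts was not tested. FPKM alone gives no depth, so no limit of detection can be set.

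Without the filter on low values limma no longer called Tdo2 and Bckdhb in MCLI8 + SALI4 against MCLI8, Ahcy in MCLI12 against MCLI8, and Sdsl, Aldh4a1, Bhmt and Agxt in MCLI8 + SALI4 against MCLI12, with adjusted p from 0.0502 to 0.0963.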
